A study of Mus musculus with 6 samples.

Results

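The genes described here carry iron into the developing red cell, store it, sense it and export it. They are the 10 genes Tfrc, Steap3, Slc11a2, Slc25a37, Fth1, Ftl1, Ncoa4, Ireb2, Aco1 and Slc40a1, chosen by symbol and found in both deposited tables, 10 of 17691 genes. RNA was sequenced from erythroblasts, the nucleated precursors of red cells, of C57BL/6J mouse fetal liver. The cells did not carry TER119, which marks more mature red cell precursors, and all were cultured with erythropoietin. There were 2 groups of 3 libraries, untreated and treated for 30 h with 1 ug/ml of carbon dots (CDs), carbon nanoparticles derived from the plant Codonopsis pilosula. The labels name no genetic change, and they do not say how many fetuses or cultures stand behind a library.

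Erythroblasts take up more iron than most other cells because each makes large amounts of heme. Transferrin delivers iron to the transferrin receptor, the complex enters an endosome, a reductase and a transporter move the iron to the cytosol, and mitoferrin passes it into the mitochondrion. Surplus iron is kept in ferritin, released from it by autophagy, or exported through ferroportin. The 2 iron regulatory proteins bind a short hairpin, the iron responsive element, when iron is low. Bound in a 5′ untranslated region the hairpin blocks translation, and bound in the 3′ region of the transferrin receptor message it protects the message from decay.

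The hairpins are shown because they are the sites through which the regulatory proteins are known to act on these messages. The search asked for a C, 5 bases of any kind, the loop CAGTGN and 5 more bases that pair in full with the first 5. It also asked for at least 4 of 6 pairs in the outer stem, on the transcript strand, in the untranslated parts of GENCODE M21 coding transcripts (GRCm38). Capitals mark the 6 bases of the loop, T stands for U, and each window holds 29 bases.
Tfrc, 3′ untranslated region, chr16:32631219-32631247, plus strand: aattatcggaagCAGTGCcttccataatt
Tfrc, 3′ untranslated region, chr16:32631598-32631626, plus strand: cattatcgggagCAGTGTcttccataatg
Tfrc, 3′ untranslated region, chr16:32631663-32631691, plus strand: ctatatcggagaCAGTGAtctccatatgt
Tfrc, 3′ untranslated region, chr16:32631710-32631738, plus strand: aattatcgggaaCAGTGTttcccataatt
Fth1, 5′ untranslated region, chr19:9982732-9982760, plus strand: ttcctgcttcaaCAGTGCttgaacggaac
Ftl1, 5′ untranslated region, chr7:45459779-45459807, minus strand: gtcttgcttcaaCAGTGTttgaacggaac
Slc40a1, 5′ untranslated region, chr1:45925465-45925493, minus strand: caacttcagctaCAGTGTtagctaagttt

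The letters were found in 4 of the 10 genes, against 23 of 21106 genes with an untranslated part long enough to search (0.109%). These letters are those of the hairpin already known in such messages, so the shares describe the sequences and test nothing. Tfrc held 4 matches, all in the 3′ region, and Fth1, Ftl1 and Slc40a1 held 1 each in the 5′ region. The other 6 genes held no match to these letters, among them Slc11a2. A match describes the sequence and shows no binding in these cells. It was counted in any coding transcript of a gene, while the levels below are per gene. Whether the messages present in these cells carry the matched stretch was not tested.

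With CDs none of the 10 messages passed the test over all genes, and most lay within the spread between libraries. Ncoa4, the receptor that carries ferritin to autophagy, was the one gene whose groups did not overlap. Its fold change was 1.19, and 2.37% of all genes tested likewise had every CDs library above every untreated one. Ncoa4 and Aco1, the gene of iron regulatory protein 1, were higher in the CDs library of all 3 numbered pairs. Steap3 and Slc11a2, which act in the endosome, were lower in all 3. Over all genes tested 30.2% were higher and 26.2% lower in all 3 pairs. Tfrc, mitoferrin and both ferritin subunits showed no shared direction over the pairs.

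All 10 genes passed the filter on low counts. In edgeR's quasi-likelihood test without the replicate number, 0 of the 10 had an adjusted p under 0.05, as did 0 of all 12283 genes (0%). At an unadjusted p under 0.05 there were 0 of the 10 and 127 of all genes (1.03%), and DESeq2 and limma-voom without the number also called 0 of the 10. The numbers 1 to 3 were taken to pair the libraries because deviations of the same number correlated. The labels do not say what a number stands for. A fit with the number as a block removes that part of the spread. With the block 0 of the 10 passed at 0.05 (0.0407% of all genes), and 2, Aco1 and Ncoa4, both higher, had an adjusted p under 0.10 (8.30% of all genes, 5.17% on the higher side). At an unadjusted p under 0.05 the block gave 4 of the 10, those 2 with Steap3 and Slc11a2, against 29.9% of all genes. The median log2 fold change was 0.03 over the 10 genes and 0.01 over all genes tested.

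Libraries of different numbers differed widely in the markers of other cells. The summed level of 16 macrophage markers (counts scaled to library size, CPM) was 166, 490 and 4220 CPM in the untreated libraries 1 to 3, and the CDs libraries held 376, 1575 and 5274 CPM. It was higher in the CDs library of all 3 pairs. Of the 12 markers tested, 10 were higher in all 3 pairs and 1, Cd5l, was lower. None of the 16 was at 0 in every library, although Cd163, Timd4 and Vsig4 stayed under 1 CPM throughout. Granulocyte markers summed to 269, 841 and 2065 CPM untreated and 380, 1273 and 2130 CPM with CDs. Endothelial markers summed to 6.56, 10.8 and 64.7 CPM untreated and 12.8, 28.8 and 81.9 CPM with CDs. Both sums were also higher in the CDs library of all 3 pairs. The summed level of 15 erythroblast markers, the check of the labelled cell type, lay between 112859 and 139608 CPM, most of it from globin genes. Of these 15 markers 2 had a log2 fold change above 0, 6 were lower in the CDs library of all 3 pairs and 0 were higher in all 3. The erythroid transcription factor Klf1 measured 735, 689 and 388 CPM untreated and 694, 590 and 285 CPM with CDs, low in both libraries numbered 3. Gata1 and the erythropoietin receptor gene Epor were low there too, at 339 and 163 CPM in untreated 3 and 249 and 132 CPM in CDs 3. In bulk RNA, fewer cells of a type and less RNA per cell cannot be told apart. The part of other cell types in the values below was not tested.

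Per length the order of the 10 messages ran from ferritin to the regulatory proteins. Ftl1 was highest, at 7189 to 7634 FPKM (fragments scaled to gene length and library size) over the 6 libraries, and Fth1 came next at 4141 to 5072 FPKM. Slc25a37 (520 to 831 FPKM) and Tfrc (287 to 655 FPKM) overlapped in range, yet Slc25a37 was above Tfrc in each of the 6 libraries. Steap3 (36 to 98.2 FPKM) and Ncoa4 (72.6 to 102 FPKM) could not be ordered, with Steap3 above Ncoa4 in 3 of 6 libraries. Slc11a2 (26.6 to 44.3 FPKM), Slc40a1 (14.8 to 27.9 FPKM) and Ireb2 (12.4 to 15.3 FPKM) overlapped with their neighbours in that order. Aco1 was lowest, at 3.27 to 8.07 FPKM, below Ireb2 in all 6 libraries. The 10 genes together held 1.58% to 1.85% of all counts, of which the 2 ferritin genes held 1.07% to 1.2%.

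**Figure D1:**
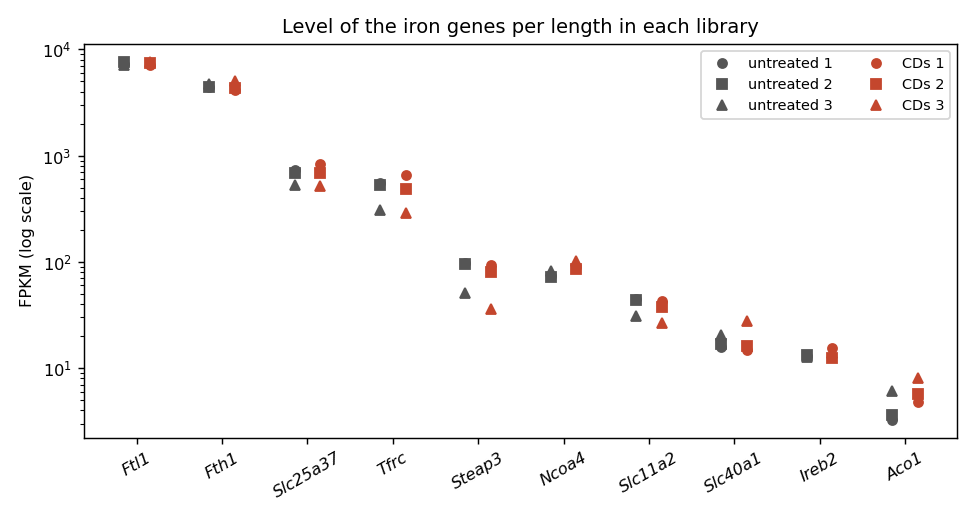
FPKM of the 10 iron genes on a log axis, ordered by their median, with untreated libraries in grey and CDs libraries in red and the shape giving the replicate number. Ferritin messages lie at 4141 FPKM or above in every library, Aco1 at 8.07 FPKM or below, and the libraries numbered 3 are low in Tfrc, Steap3, Slc11a2 and Slc25a37.

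Tfrc encodes transferrin receptor 1, the entry point of the cycle (Entrez 22042, chromosome 16, 32608896 to 32632794). It measured 2819, 2697 and 1516 CPM in untreated 1 to 3 and 3306, 2437 and 1375 CPM in CDs 1 to 3. The groups overlapped throughout, and in both of them library 3 was low, at 0.550 and 0.484 times the mean of libraries 1 and 2. The group means were 2344 ± 720 and 2373 ± 967 CPM (SD, n = 3), a log2 fold change of 0.02 ± 0.41 (SE, edgeR adjusted p = 0.997). Within the pairs the CDs library differed by 17.3%, -9.61% and -9.28%. The message with 4 hairpin matches thus had no single direction over the 3 pairs.

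Steap3 encodes the endosomal ferrireductase that turns ferric into ferrous iron (chromosome 1, 120226414 to 120271081). It measured 287, 277 and 143 CPM in untreated 1 to 3 and 267, 230 and 99.5 CPM in CDs 1 to 3. The CDs library was lower in all 3 pairs, by -6.66%, -16.9% and -30.2%, while the groups overlapped because both libraries numbered 3 were low. The log2 fold change was -0.24 ± 0.46 (edgeR adjusted p = 0.994), and with the replicate block -0.29 ± 0.09 (adjusted p = 0.116). Without the block it was 0.08 when CDs 3 alone was left out and -0.20 when both libraries numbered 3 were left out. The first of these fits keeps the low untreated 3, so it does not show that the direction rests on CDs 3.

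Slc11a2 encodes DMT1, which moves ferrous iron out of the endosome (chromosome 15, 100387898 to 100424209). It measured 160, 157 and 104 CPM in untreated 1 to 3 and 150, 134 and 88.8 CPM in CDs 1 to 3. This gene too was lower in the CDs library of all 3 pairs, by -6.27%, -14.6% and -15.0%. The log2 fold change was -0.18 ± 0.27 (edgeR adjusted p = 0.994), and with the block -0.18 ± 0.06 (adjusted p = 0.125). Without the block it was 0.01 when CDs 3 alone was left out and -0.18 when both libraries numbered 3 were left out. Of all genes tested, 26.2% were lower in all 3 pairs, against 2 of these 10. Counts are per gene, so messages with different 3′ ends of Slc11a2 were not separated.

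Slc25a37 encodes mitoferrin 1, the iron importer of the inner mitochondrial membrane (chromosome 14, 69241848 to 69285544). It measured 3327, 3074 and 2256 CPM in untreated 1 to 3 and 3717, 3048 and 2187 CPM in CDs 1 to 3. The CDs library was higher in pair 1 by 11.7% and differed by -0.875% and -3.04% in pairs 2 and 3. The log2 fold change was 0.05 ± 0.27 (edgeR adjusted p = 0.994). Transferrin cycle and mitoferrin messages thus shared their low level in the libraries numbered 3, at 0.401 to 0.705 times the mean of libraries 1 and 2 of the same group. Over the 6 libraries the log2 CPM of Gcn1l1, Kif20b and Daam1 followed Tfrc most closely among 8340 other genes of at least 10 CPM (Pearson r = 0.998 for each). These 3 genes were likewise low in both libraries numbered 3.

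**Figure D2:**
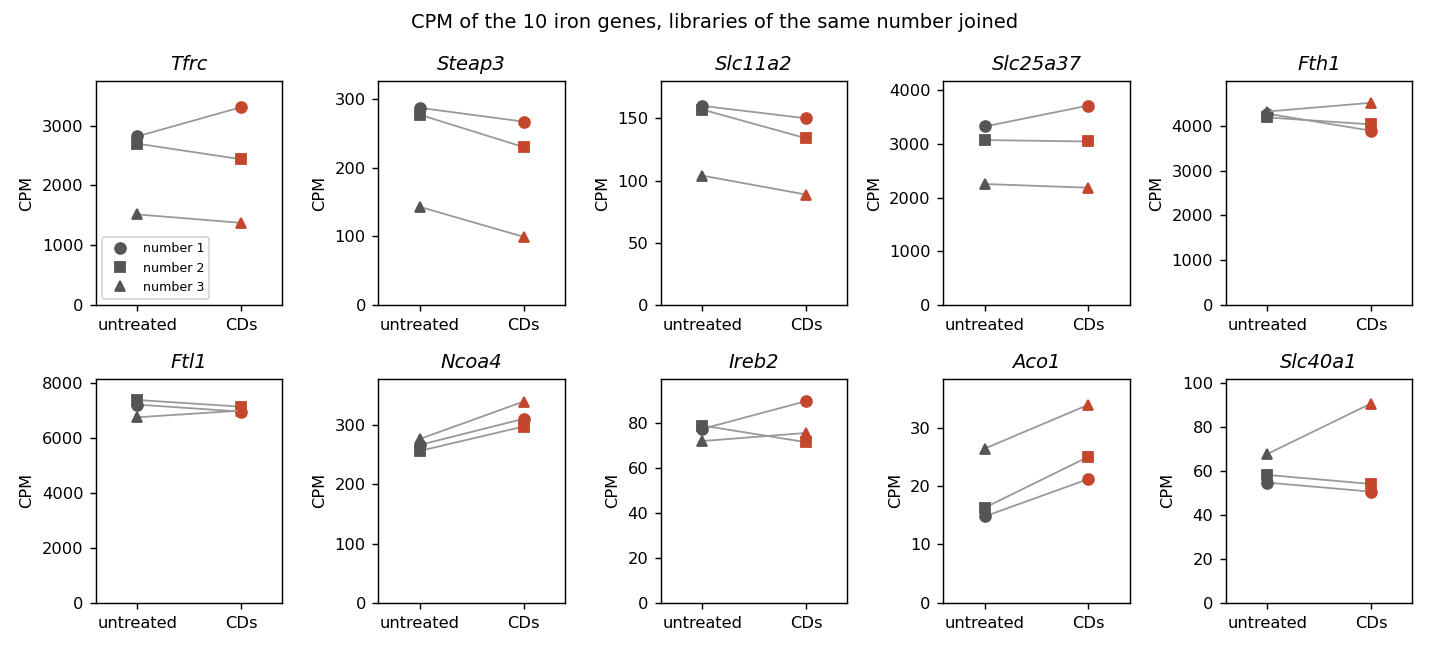
CPM of each iron gene in untreated (grey) and CDs (red) libraries, with lines joining libraries of the same replicate number and every axis starting at 0. In Ncoa4 and Aco1 all 3 lines go up, in Steap3 and Slc11a2 all 3 go down, and in the other 6 genes the lines differ in direction.

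Ferritin messages were nearly level. Fth1, the heavy subunit that oxidises iron (chromosome 19, 9980600 to 9985111), measured 4266, 4183 and 4315 CPM in untreated 1 to 3 and 3888, 4028 and 4509 CPM in CDs 1 to 3. Both the lowest and the highest of the 6 values were CDs libraries. The log2 fold change was -0.04 ± 0.15 (edgeR adjusted p = 0.994). Ftl1, the light subunit that favours mineral formation (chromosome 7, 45457944 to 45459886), measured 7214, 7383 and 6753 CPM untreated and 6960, 7139 and 6997 CPM with CDs. All 3 CDs values of Ftl1 lay within the untreated range, with a log2 fold change of -0.02 ± 0.14 (edgeR adjusted p = 0.994).

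Heavy to light ferritin stood at a per-length ratio of 0.61, 0.584 and 0.659 in the untreated libraries and 0.576, 0.582 and 0.664 in the CDs libraries, numbers 1 to 3. The mean log2 ratio differed by -0.03 between the groups, within their SDs of 0.09 and 0.12 (exact two-sided permutation p = 0.7, adjusted over 4 ratios 1, smallest possible p 0.1). The ratio of Tfrc to Fth1, uptake to storage, differed by 0.02 on the log2 scale (exact permutation p = 1). RefSeq lists 7 ferritin pseudogenes by symbol, of which 0 are in the table used here. Reads of near-identical copies could have been counted with Fth1 or Ftl1, which makes the levels of these 2 genes uncertain.

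Ncoa4 (Entrez 27057, chromosome 14, 32159879 to 32179855) binds ferritin and brings it to the lysosome, where its iron is set free. It measured 266, 256 and 276 CPM in untreated 1 to 3 and 310, 297 and 339 CPM in CDs 1 to 3. Every CDs library was above every untreated one, which held for 291 of all genes tested on the higher side (2.37%). The means were 266 ± 10.2 and 315 ± 21.5 CPM (SD, n = 3), a log2 fold change of 0.25 ± 0.11 (unadjusted p = 0.0786, edgeR adjusted p = 0.994). Within the pairs the CDs library was higher by 16.9%, 16.1% and 22.7%, and the fit with the replicate block gave 0.25 ± 0.06 (adjusted p = 0.0957). The value ran from 0.19 to 0.27 over all alternatives and was 0.20 without both libraries numbered 3. Untreated 3 held 25.4 times the macrophage marker level of untreated 1, beside Ncoa4 levels of 276 and 266 CPM. CDs 3 held 14 times that of CDs 1, beside 339 and 310 CPM. Like Ncoa4, the macrophage, granulocyte, endothelial and hepatocyte marker sums were higher in the CDs library of all 3 pairs. The part of these cells in the Ncoa4 values was not tested.

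Aco1 encodes iron regulatory protein 1, which is a cytosolic aconitase while it holds an iron-sulfur cluster and binds the hairpins without it (Entrez 11428, chromosome 4, 40143265 to 40199009). It measured 14.8, 16.3 and 26.4 CPM in untreated 1 to 3 and 21.2, 25 and 33.9 CPM in CDs 1 to 3. The groups overlapped, since untreated 3 was above CDs 1 and CDs 2, but the CDs library was higher in all 3 pairs, by 43.6%, 53.3% and 28.4%. The log2 fold change was 0.48 ± 0.30 (edgeR adjusted p = 0.994) and with the replicate block 0.50 ± 0.09 (adjusted p = 0.0916). DESeq2 with the block called it (adjusted p = 0.0287), as it called 8.72% of the genes it tested on the higher side. Without both libraries numbered 3 the blocked edgeR fit gave 0.55 (adjusted p = 0.00849, with 12.2% of all genes called higher). Without both libraries numbered 2 that fit gave 0.41 (adjusted p = 0.0482, with 4.84% called higher). Without both numbered 1 it gave 0.48 (adjusted p = 0.26, with 0% called higher). Each of these fits rests on fewer libraries, and the share of all genes called higher differed widely between them. With 1 library left out and no block, the value was 0.78 without untreated 3, 0.32 without untreated 1 and 0.27 without CDs 3. The adjusted p of Aco1 spanned 0.00849 to 1 across every alternative run. Higher in all 3 pairs were 30.2% of all genes tested, against 2 of these 10. Aco1 moved with the macrophage, granulocyte and endothelial marker sums both across the numbers and within each pair. The part of these cells in the Aco1 values was not tested.

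Ireb2 encodes iron regulatory protein 2, which is degraded when iron is plentiful (chromosome 9, 54862658 to 54912534). It measured 77.2, 78.7 and 71.8 CPM in untreated 1 to 3 and 89.5, 71.3 and 75.4 CPM in CDs 1 to 3. Here the CDs library was higher in pairs 1 and 3 and lower in pair 2, and the log2 fold change was 0.05 ± 0.13 (edgeR adjusted p = 0.994). The per-length ratio of Ireb2 to Aco1 was 3.98, 3.68 and 2.09 in the untreated libraries and 3.19, 2.2 and 1.72 in the CDs libraries, numbers 1 to 3. It was lower in the CDs library of all 3 pairs, by -0.32, -0.74 and -0.29 on the log2 scale, and the group difference was -0.45 (exact two-sided permutation p = 0.3, adjusted over 4 ratios 1). Leaving out untreated 1 gave -0.27 and leaving out untreated 3 gave -0.74, while dropping CDs 1 gave -0.69 and dropping CDs 3 gave -0.24. An exact sign-flip test over the 3 pairs gave p = 0.25, the smallest it can give.

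Slc40a1 encodes ferroportin, the iron exporter, which macrophages also express strongly (chromosome 1, 45908070 to 45926532). It measured 54.6, 58.1 and 67.6 CPM in untreated 1 to 3 and 50.5, 54.0 and 90.5 CPM in CDs 1 to 3. CDs 3 stood above the other 5 libraries, and in pairs 1 and 2 the CDs library was lower, by -7.47% and -6.95%. The log2 fold change was 0.11 ± 0.26 (edgeR adjusted p = 0.994), -0.20 without CDs 3 and -0.13 without both libraries numbered 3. The libraries with the highest Slc40a1 in each group, those numbered 3, also had the highest macrophage marker levels, 4220 and 5274 CPM. In pairs 1 and 2 the macrophage sum was higher with CDs by 1.18 and 1.68 on the log2 scale, beside Slc40a1 differences of -0.11 and -0.10. The part of macrophages in the Slc40a1 values was not tested. The ratio of Tfrc to Slc40a1, uptake to export, differed by -0.08 on the log2 scale (exact permutation p = 0.8).

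**Figure D3:**
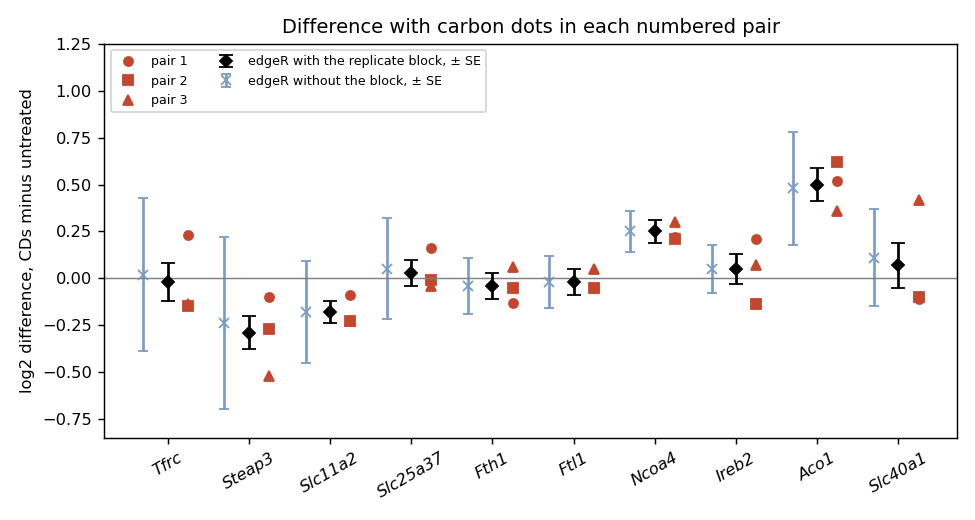
Log2 difference of CDs minus untreated for each iron gene, with the edgeR estimate without the block (blue cross), that with the block (black diamond) and the 3 numbered pairs (red), where bars are 1 SE of the fit. Ncoa4 and Aco1 lie above 0 in all 3 pairs and Steap3 and Slc11a2 below 0, and the bars without the block are wider in each of the 10 genes.

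Further iron genes were taken from 5 lists, and over all genes tested 48.1% had a log2 fold change below 0. Of the 18 iron-sulfur cluster assembly genes tested, 17 were below 0 (median -0.20) and 14 were lower in the CDs library of all 3 pairs, against 26.2% of all genes tested. In edgeR 0 of the 18 passed with or without the block. Erythroblast markers lay the same way, with 2 of 15 above 0, and whether both share a source was not tested. Nfu1, a cluster carrier protein, measured 55.7, 54.8 and 56.0 CPM untreated and 45.5, 48.6 and 48.6 CPM with CDs, without overlap between the groups (2.33% of all genes on the lower side). Its log2 fold change was -0.22 ± 0.09 (edgeR adjusted p = 0.994). Iscu, the scaffold on which clusters are built, measured 51.7, 52.3 and 55.5 CPM untreated and 39.3, 49.3 and 48.9 CPM with CDs. Its groups likewise did not overlap, with a log2 fold change of -0.21 ± 0.13. Bola3, a factor of late cluster transfer, had -0.33 ± 0.23. With the block Bola3 had -0.34 ± 0.07 (edgeR adjusted p = 0.0916, DESeq2 adjusted p = 0.0147).

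Of the other transferrin cycle and transport genes 13 of 16 were tested, with 7 above 0, 6 below 0 and a median of 0.07. Tfr2, the second transferrin receptor, measured 99.4, 104 and 66.9 CPM in untreated 1 to 3 and 86.6, 82.4 and 49.1 CPM in CDs 1 to 3. It was lower in all 3 pairs, as Steap3 and Slc11a2 were (-0.31 ± 0.29 without and -0.32 ± 0.07 with the block, edgeR adjusted p = 0.994 and 0.0916). Trf, transferrin itself, measured 69.4, 59.1 and 160 CPM untreated and 86.6, 110 and 232 CPM with CDs (0.57 ± 0.55). Hepatocytes make transferrin, and 10 hepatocyte markers summed to 223, 170 and 358 CPM in untreated 1 to 3 and 265, 247 and 461 CPM in CDs 1 to 3, and their part in the Trf values was not tested. Steap2, a relative of Steap3, stayed under 3 CPM in every library (0.60 ± 0.39).

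Among 9 tested genes of iron chaperones and iron sensing 5 were above 0 and 4 below 0 (median 0.06). Fbxl5, the iron-sensing subunit of the ligase that removes iron regulatory protein 2, had a log2 fold change of 0.32 ± 0.40. Rc3h1, an RNA-binding repressor that acts on the Tfrc message, had 0.23 ± 0.16, and Zfp36, an RNA decay factor, 0.75 ± 0.99. None of these 3 passed in edgeR without the block. Zfp36 measured 73.5, 98.8 and 491 CPM in untreated 1 to 3 and 116, 278 and 724 CPM in CDs 1 to 3. It was higher in the CDs library of all 3 pairs, as the macrophage, granulocyte, endothelial and hepatocyte sums were. The part of those cells was not tested.

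Of other messages known for iron responsive elements 5 were tested, 2 above 0 and 3 below 0 (median -0.02). Cdc42bpa, a kinase, had -0.18 ± 0.29, and Epas1, the hypoxia factor HIF-2 alpha, 0.93 ± 0.69 at levels under 1.5 CPM. The hairpin letters above were found in 1 of the 7 genes of this list, Alas2. Of export and systemic control genes 4 were tested, 2 above 0 and 2 below 0 (median -0.02). Erfe, erythroferrone, the hormone by which erythroblasts lower hepcidin, measured 210, 213 and 120 CPM in untreated 1 to 3 and 190, 174 and 80.5 CPM in CDs 1 to 3. It was lower in all 3 pairs (-0.29 ± 0.40, edgeR adjusted p = 0.994, and -0.33 ± 0.09 with the block, adjusted p = 0.106). Flvcr1, a heme exporter, had 0.20 ± 0.35. Hmox1, which frees iron from heme, measured 4.03, 3.58 and 7.08 CPM untreated and 16.1, 15.6 and 14.9 CPM with CDs. Its groups did not overlap (2.37% of all genes on the higher side), at levels far under those of the ferritin genes. The log2 fold change was 1.66 ± 0.31 (edgeR unadjusted p = 0.00208, adjusted p = 0.994). With the block Hmox1 had 1.70 ± 0.24 (edgeR adjusted p = 0.0916, with 8.30% of all genes under 0.10). DESeq2 with the block called 7 of the 46 genes of the 5 lists that it gave an adjusted p, 4 higher and 3 lower, against 11.1% of all genes. Higher were Trf (adjusted p = 0.00302), Hfe (0.0089), Zfp36 (0.00035) and Hmox1 (2.28e-06), and lower were Tfr2 (0.0368), Slc39a8 (0.0139) and Bola3 (0.0147). Hfe and Slc39a8 are named after their values were seen. Hamp, the hepcidin gene, stayed under 1 CPM in every library.

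**Figure D4:**
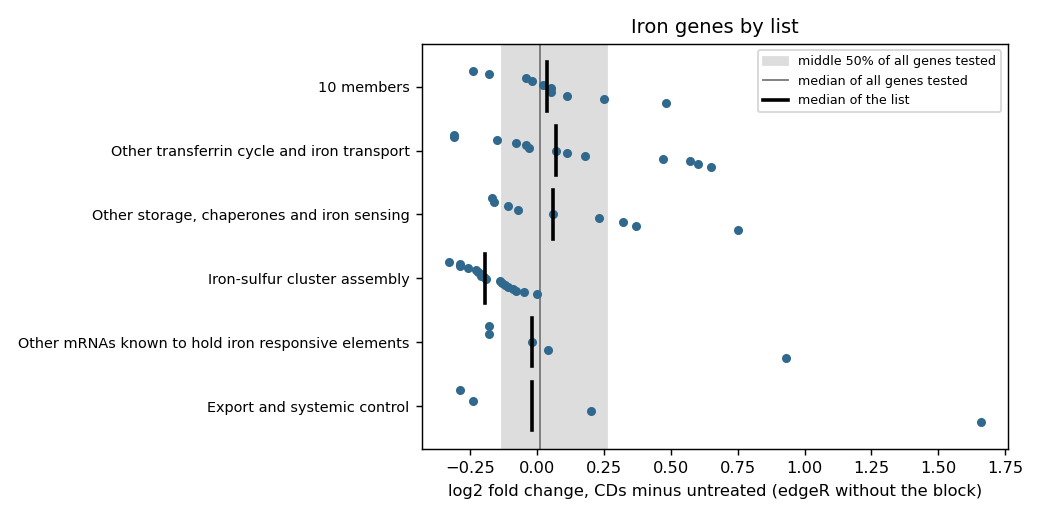
Log2 fold change of CDs minus untreated (edgeR without the block) for the 10 iron genes and the tested genes of 5 further iron lists, 1 point a gene, with the median of each list as a black bar. The iron-sulfur cluster list lies to the left of 0 with a median of -0.20, while the grey band, the middle 50% of all genes tested, runs from -0.13 to 0.26.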

How the data were processed

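Polyadenylated RNA of 6 libraries was read from one end on a DNA nanoball instrument, per the labels' protocols, which name no step that marks strand. The build is GRCm38.p6, and RSEM 1.2.12, HISAT2 2.0.4, DESeq2 1.4.5 and Bowtie2 2.2.5 are named without roles, all per the submitters' processing notes. The authors deposited expected counts per gene (30.1% of the values not whole), rounded here for every count test, and FPKM, a unit worked out from the deposited values because the header names none. Library totals ran from 17695997 to 20066581 expected counts. The labels do not say whether replicates are separate cultures, so the p-values rest on a spread among libraries that may be technical.

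Genes were filtered with filterByExpr (12283 left, with 99.9% of counts), given TMM factors and fitted in edgeR 4.0.16 under R 4.3.3 (robust quasi-likelihood, no term but treatment). The Benjamini-Hochberg adjustment covers every tested gene, and 0.05 is the threshold. CPM use TMM-scaled totals. Alternatives were edgeR with a replicate block, DESeq2 1.42.0 and limma-voom (limma 3.58.1) with and without it, RLE scaling, no filter, limma on log2(FPKM + 1) and log2(FPKM + 0.1), and left-out libraries.

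Both groups carry the numbers 1 to 3 in the labels. Deviations from the group means correlated at 0.89, 0.30 and 0.92 for the same number, all above the limit of 0.1, so the numbers were taken to pair the libraries. The labels do not say that a number is a shared litter, batch or day. Correlations between different numbers were not worked out, so the check does not show that another matching would do worse. Coordinates are RefSeq's for GRCm38.p6, matched by Entrez number for 17570 genes (99.3%). Hairpin letters were sought in GENCODE M21 transcripts of the same build, although RefSeq transcripts had been planned. In the 10 genes counts and FPKM differed between libraries by an RMS of at most 0.0148 (log2), against a 99th percentile of 0.109 over 8849 genes. Slc11a2 and Slc25a37 overlap 1 and 3 long noncoding genes of the annotation, and their reads cannot be told apart.

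The 10 genes, the 5 further lists and the marker lists were chosen with earlier results of these data known. The text names all 10 genes, the 3 genes of each further list with the smallest unadjusted p, and the 3 genes closest to Tfrc by correlation, except 1 gene of a further list that is not reported here. Hamp, Hfe, Slc39a8 and the single marker and pseudogene names lie outside that rule, and Alas2 is named as the 1 gene of its list with a match. Lists are described by counts and medians, with no set test.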

Additional observations from a re-analysis of the deposited data

How the results depend on the processing

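Ncoa4 and Aco1 kept their direction in all 22 alternatives, and no other gene of the 10 did. Counts of genes called, over all genes, were 0 without the block and moved to 5 in edgeR with the replicate block, 6 in limma-voom with it, 1201 in DESeq2 with it and 14 in DESeq2 without it. Apart from Aco1 in DESeq2 with the block (0.48) and in 2 blocked fits given in the report, the block changed no call of the 10 genes. Tfrc, 0.02 in edgeR without the block, was -0.02 in edgeR and limma-voom with the block and in limma-voom without it, -0.04 in DESeq2 with the block, and -0.0009 in DESeq2 without it and with RLE size factors. Without both libraries numbered 1, and with or without the block, Tfrc was -0.15, Slc25a37 -0.03 and Ireb2 -0.04, and Fth1 without the block 0.0015. Without both libraries numbered 3 Slc40a1 was -0.13 in both fits. Ftl1 was 0.01 in all 3 fits of FPKM, the blocked one included. With 1 library left out the values ran from -0.30 to 0.29 for Tfrc, -0.52 to 0.08 for Steap3, -0.35 to 0.01 for Slc11a2, -0.15 to 0.23 for Slc25a37, -0.06 to 0.01 for Ftl1, -0.06 to 0.10 for Ireb2, -0.20 to 0.26 for Slc40a1, 0.27 to 0.78 for Aco1, 0.19 to 0.27 for Ncoa4 and -0.10 to -0.0027 for Fth1. The log2 ratio differences then ran from -0.09 to 0.02 for Fth1 to Ftl1, -0.31 to 0.43 for Tfrc to Fth1, -0.52 to 0.53 for Tfrc to Slc40a1 and -0.74 to -0.24 for Ireb2 to Aco1. The pair means of all 4 ratios equal their group differences, so the pairing changes their p alone. Of the 10 genes, 4 kept 1 direction over all 3 pairs. Over all genes tested 30.2% were higher and 26.2% lower in all 3. In the pairs numbered 1 and 2 alone 7 of the 10 kept 1 direction, and the share of all genes was not worked out. The cause of these changes was not tested, beyond the smaller number of libraries where some were left out. With 3 libraries a group, a ratio cannot reach an exact p under 0.1.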
